A study of Mus musculus with 18 samples.

Results

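The mitochondrial solute carriers of family 25 are inner-membrane proteins that exchange nucleotides, carboxylates, amino acids, cofactors, phosphate and acylcarnitines between the cytosol and the matrix. They were described here as all genes of the array whose probe sets carry a single annotated symbol starting with Slc25a. This gave 44 genes among 18194 genes with such a probe set, measured by 93 probe sets, and the brightest probe set of a gene, by its mean over the 18 arrays, stands for it. Of the 44, 26 reached log2 6 on at least 3 arrays and were tested together with all 8622 genes that did so. The other 18 were dim and are described separately.

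The study followed the ileum of C57BL/6 mice through early postnatal life, with 3 individual mice on each of postnatal days 4, 7, 9, 11, 24 and 32. RNA came from pieces of the distal small intestine that kept all wall layers, so muscle, nerve, immune and fat cells contributed beside the epithelium. The labels give no sex for the mice. The course ran from suckling to weaned mice, and general knowledge of the mouse places weaning between day 11 and day 24. "After weaning" therefore stands for the 6 arrays of days 24 and 32, and "before weaning" for the 12 arrays of days 4, 7, 9 and 11. All levels are log2 values of single probe sets, and levels are compared within a gene, not between genes.

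Suckling pups live on fat-rich, carbohydrate-poor milk, and weaned mice on a starch-based diet. In the suckling enterocyte, long-chain fatty acids enter mitochondria as acylcarnitines through Slc25a20, and the small intestine makes citrulline and arginine in a route that needs the ornithine carrier Slc25a15. Reducing equivalents reach the matrix by the malate-aspartate shuttle, which rests on the aspartate/glutamate carriers Slc25a12 and Slc25a13 and the oxoglutarate/malate carrier Slc25a11. ATP leaves in exchange for ADP through the adenine nucleotide translocators Slc25a4 and Slc25a5.

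The carriers moved in both directions between the stages, led upwards by Slc25a48 and Slc25a24 and downwards by Slc25a34, Slc25a42 and Slc25a44. After weaning, 9 of the 26 genes tested were higher and 10 were lower at an adjusted p under 0.05 (limma, adjusted over all genes tested). Among all genes tested, 31% were higher and 41.8% were lower, so the members' shares of 34.6% and 38.5% lay near the background. Their median difference was -0.03, against -0.07 for all genes, and the median size of the difference was 0.50, against 0.41. At least 2-fold differences were seen for 3 members upwards and 3 downwards, where all genes had 7.53% and 11.5%. The levels of the 6 arrays after weaning did not overlap those of the 12 arrays before weaning for 14 members, 8 higher and 6 lower. This was so for 15.4% of all genes upwards and 21.7% downwards. Slc25a48 and Slc25a17 reached log2 6 only on the arrays after weaning, and Slc25a42 only on those before, so these genes could enter the test only by differing. Without the filter, 29 of all 44 members differed between the stages, against 56.3% of all genes.

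**Figure D1:**
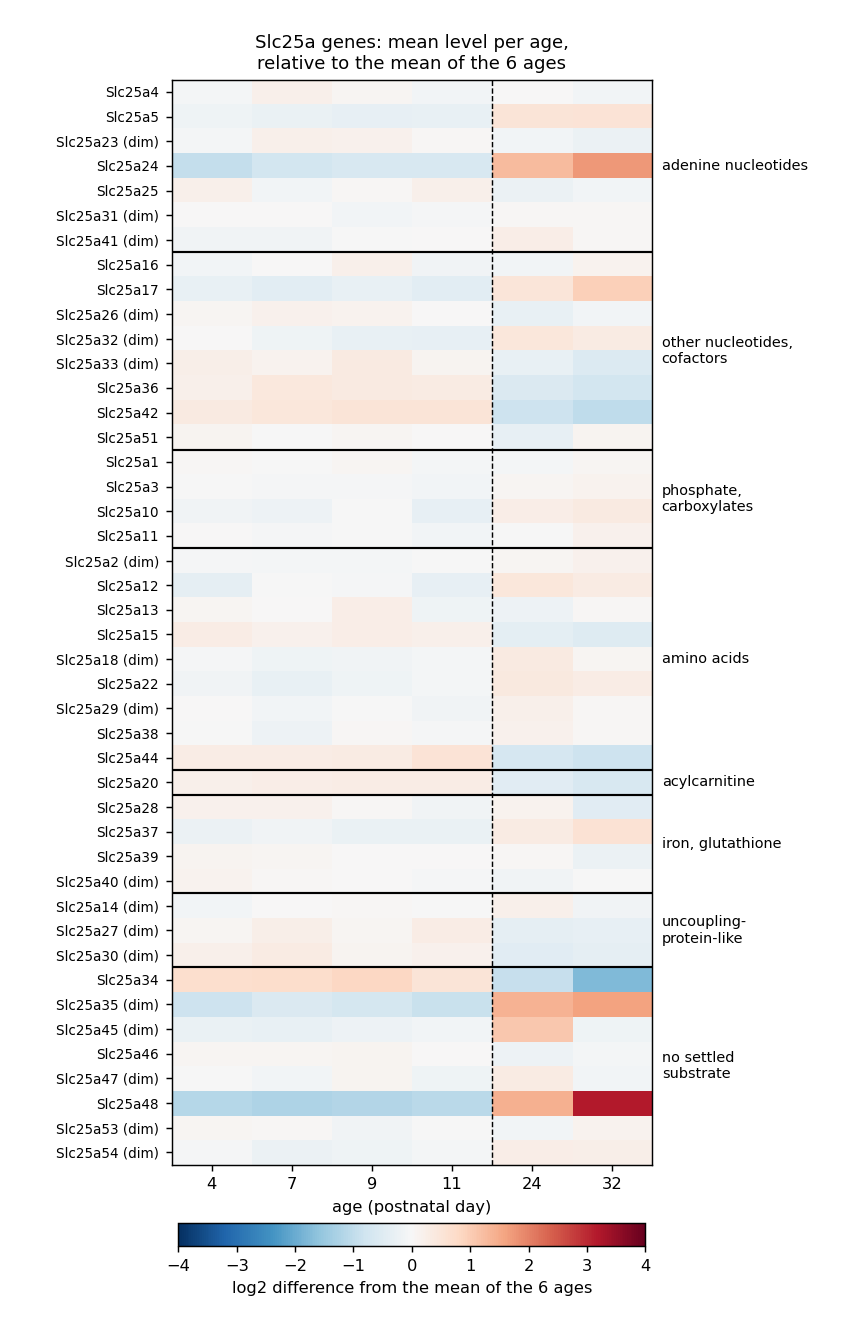
Mean log2 level of each of the 44 Slc25a genes on each postnatal day (3 mice a day), shown as the difference from the gene's mean over the 6 ages, grouped by substrate; dim marks the 18 genes under the filter and the dashed line separates days 4 to 11 from days 24 and 32. Slc25a24, Slc25a35 and Slc25a48 turn from blue to red across the line while Slc25a34, Slc25a42 and Slc25a44 turn from red to blue.

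The sequences upstream of the 4 tested members with the largest differences are shown so that the letters upstream of the most changed carriers can be read, as 250 bases before the RefSeq transcript start (GRCm38.p6). Capitals mark matches on either strand to the CCAAT box (CCAAT, or ATTGG in reverse) and to the motif of estrogen-related receptors (AAGGTCA, or TGACCTT in reverse). Slc25a48 at chr13:56438105-56438354 and Slc25a24 at chr3:109122899-109123148 lie on the plus strand and were higher after weaning. Slc25a34 at chr4:141623835-141624084 and Slc25a42 at chr8:70212282-70212531 lie on the minus strand and were lower.
Slc25a48: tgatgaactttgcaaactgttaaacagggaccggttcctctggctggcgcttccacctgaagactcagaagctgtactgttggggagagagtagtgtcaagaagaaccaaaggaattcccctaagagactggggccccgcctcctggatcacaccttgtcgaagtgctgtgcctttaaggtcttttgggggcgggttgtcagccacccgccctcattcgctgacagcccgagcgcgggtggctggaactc
Slc25a24: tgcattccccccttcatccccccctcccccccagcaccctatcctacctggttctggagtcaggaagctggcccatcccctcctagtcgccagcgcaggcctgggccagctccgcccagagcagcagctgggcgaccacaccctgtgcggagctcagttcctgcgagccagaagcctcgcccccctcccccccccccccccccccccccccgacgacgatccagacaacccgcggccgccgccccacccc
Slc25a34: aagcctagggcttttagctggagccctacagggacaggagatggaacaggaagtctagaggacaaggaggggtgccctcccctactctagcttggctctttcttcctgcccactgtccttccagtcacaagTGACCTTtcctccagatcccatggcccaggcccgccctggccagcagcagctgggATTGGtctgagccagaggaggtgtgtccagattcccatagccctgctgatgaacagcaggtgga
Slc25a42: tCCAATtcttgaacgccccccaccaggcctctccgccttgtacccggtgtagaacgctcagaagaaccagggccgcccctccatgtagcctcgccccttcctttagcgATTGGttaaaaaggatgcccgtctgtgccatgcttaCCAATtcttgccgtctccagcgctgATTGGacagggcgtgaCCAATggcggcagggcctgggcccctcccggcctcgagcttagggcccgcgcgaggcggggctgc

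Upstream windows were given for 34 of the 44 members, and for 27025 genes in all. CCAAT stood in the windows of 17 of the 34 members and of 37.5% of all genes. It occurred 5 times upstream of Slc25a42, once upstream of Slc25a34 and not in the windows of Slc25a48 and Slc25a24. Of the members with a window, it was found in 2 of 8 that were higher after weaning and in 5 of 7 that were lower. AAGGTCA was found upstream of Slc25a34 alone among the 34, and upstream of 4.7% of all genes. The motif of nuclear respiratory factor stood upstream of Slc25a3 and Slc25a31 and of 4.2% of all genes. CAAAGTCCA, a motif of HNF4, and TTTATGG, a motif of CDX2, were absent from all member windows and present in 0.5% and 2.8% of all genes. No motif searched is contained in another, and a match is a description of the letters only. The members' windows had a median GC content of 58.0% and a median of 12 CpG, against 52.4% and 6 for all windows.

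Adenine nucleotide carriers were led by Slc25a24, the calcium-regulated ATP-Mg/phosphate carrier, which loads the matrix with adenine nucleotides. Of 7 such genes with a probe set, 4 were tested, and 2 were higher, 1 was lower and 1 was not called. Slc25a24 had 10.58 to 11.38 (median 11.0) on the 6 arrays after weaning, against 8.37 to 8.97 (median 8.77) on the 12 before. The stages did not overlap, and the difference of 2.23 ± 0.08 (SE) was a 4.71-fold higher level (limma adjusted p = 4.27e-14). Its mean was 8.52 ± 0.24 on day 4, 8.75 ± 0.07 on day 7, 8.83 ± 0.12 on day 9, 8.84 ± 0.15 on day 11, 10.74 ± 0.20 on day 24 and 11.20 ± 0.17 on day 32 (SD, n = 3 mice each). A second probe set of Slc25a24, at log2 6 or more on 5 arrays, differed by 2.67 in the same direction.

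Slc25a5, the adenine nucleotide translocator of dividing and epithelial cells, lies on chromosome X. It had 12.24 to 12.51 (median 12.39) after weaning, against 11.27 to 11.75 (median 11.6) before. No array after weaning was as low as any before, and the gene was 1.74-fold higher (0.80 ± 0.07, limma adjusted p = 8.48e-09). All 8 probe sets annotated to it were higher after weaning, by 0.72 to 1.28. Processed copies of this gene exist in the genome, so its probe sets may also read them. Slc25a4, the translocator best known from heart and muscle, had 9.02 to 9.47 (median 9.26) after weaning, against 9.09 to 9.59 (median 9.26) before, and was not called (-0.07, limma adjusted p = 0.414).

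Slc25a25, a paralog of Slc25a24 with the same substrates, had 6.22 to 6.58 (median 6.35) after weaning and 6.25 to 7.04 (median 6.64) before. These ranges overlapped, and it was 1.2-fold lower (-0.26, limma adjusted p = 0.00792). Its other probe sets, under log2 6 on every array, differed by 0.15 and 0.25, in the opposite direction.

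**Figure D2:**
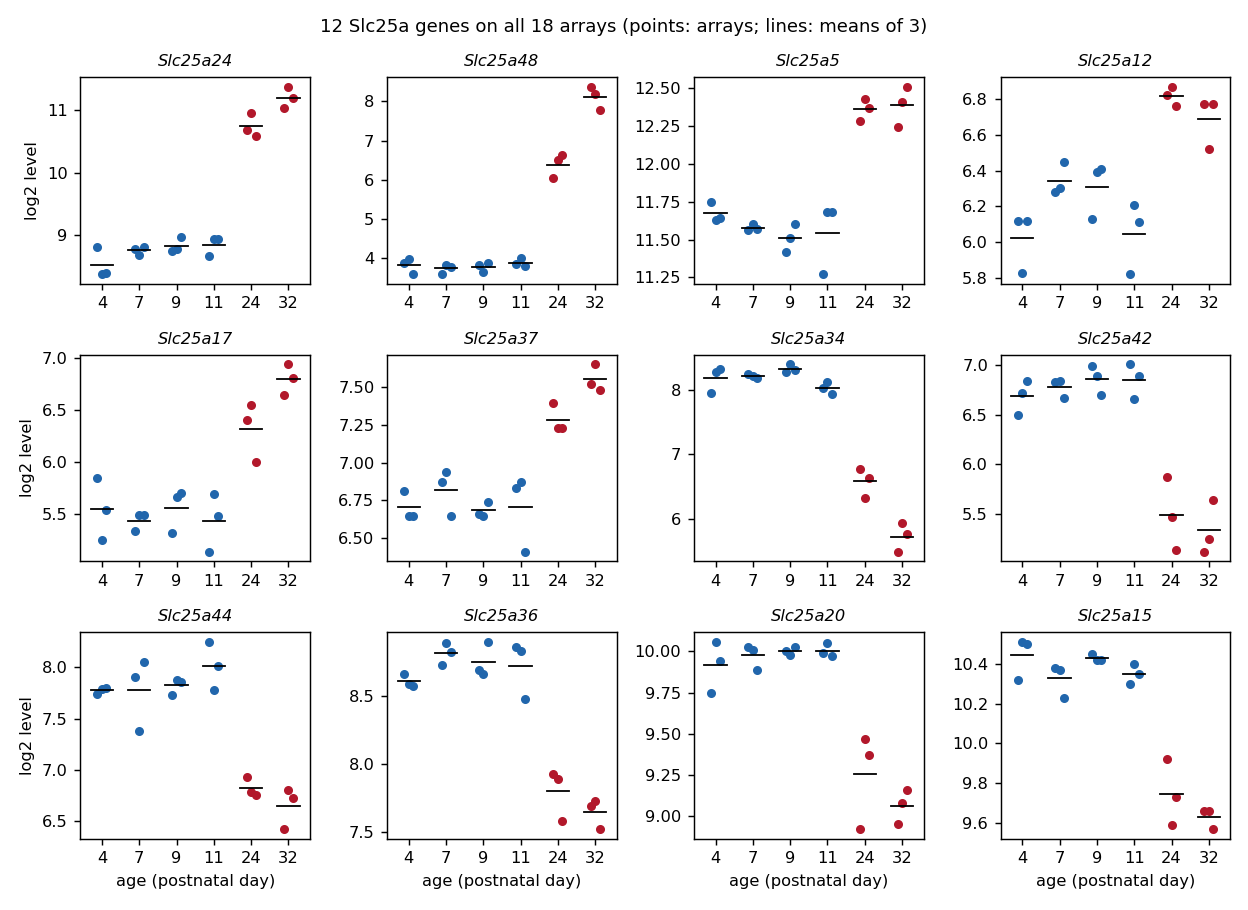
Log2 level (vertical axis, scaled per gene) of 12 Slc25a genes on every array by postnatal day; points are single mice, lines are means of 3, blue marks days 4 to 11 and red days 24 and 32. The 12 genes are all among the 14 of 26 tested members whose stages did not overlap, so in each panel the 6 red points lie on one side of the 12 blue ones through that choice. Slc25a48 and Slc25a34 move on between day 24 and day 32.

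Carriers of other nucleotides and of cofactors moved in both directions. Of 8 genes with a probe set, 5 were tested, of which 1 was higher, 3 were lower and 1 was not called, with a median difference of -0.16. Slc25a42, which brings coenzyme A and adenosine phosphates into the matrix, had 5.12 to 5.87 (median 5.36) after weaning, against 6.5 to 7.01 (median 6.84) before. Its stages did not overlap, and the level was 2.61-fold lower (-1.38 ± 0.10, limma adjusted p = 9.29e-10). All 6 arrays after weaning lay under log2 6 and all 12 before lay above it. The gene thus passed the filter only through the arrays before weaning, and its p-value is to be read with that limit. Its second probe set, under log2 6 on every array, differed by -0.04.

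Slc25a17, the peroxisomal carrier of coenzyme A, FAD and related nucleotides, moved the other way. It had 6.0 to 6.94 (median 6.59) after weaning and 5.14 to 5.85 (median 5.49) before, without overlap. The difference was 1.06 ± 0.11, or 2.09-fold (limma adjusted p = 5.45e-08). Slc25a17 passed the filter only through the arrays after weaning, where it was high, and its p-value is to be read with that limit. Its second probe set, under log2 6 on every array, differed by 0.1. Slc25a36, a carrier of pyrimidine nucleotides, had 7.52 to 7.93 (median 7.71) after weaning and 8.48 to 8.9 (median 8.71) before. It was just under 2-fold lower (-1.0 ± 0.08, limma adjusted p = 9.83e-10), while a second, dimmer probe set differed by -0.44 with overlapping arrays.

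Slc25a51, which carries NAD+ into mitochondria, depended on the age and on the probe set. The mean of its brightest probe set was 9.38 ± 0.15 on day 11, 9.03 ± 0.15 on day 24 and 9.46 ± 0.07 on day 32 (SD, n = 3 mice each), so day 24 was lower than either neighbouring age on that probe set. Over the stage it was called lower (-0.16, limma adjusted p = 0.0265), but its other probe set above log2 6 on every array differed by 0.31 between the stages and by -0.14 between day 32 and day 24. With the mean of its probe sets the stage difference was 0.07, and the call was also lost without replicate 3 of day 24 or replicate 1 of day 32. Slc25a16, a relative of Slc25a42, had 5.9 to 6.69 after weaning and 5.75 to 6.88 before, and was not called (0.02, limma adjusted p = 0.916).

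Phosphate and carboxylate carriers showed small differences. All 4 genes with a probe set were tested, 2 were higher, none was lower, and the median difference was 0.14. Slc25a10, the dicarboxylate carrier that exchanges malate and succinate for phosphate, had 8.79 to 9.2 (median 8.98) after weaning, against 7.93 to 8.78 (median 8.57) before. The lowest array after weaning lay just above the highest before, and the gene was 1.4-fold higher (0.49 ± 0.12, limma adjusted p = 0.00158). Its second probe set differed by 0.63 with overlapping arrays.

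Slc25a3, the phosphate carrier that feeds ATP synthase, had 11.81 to 12.03 (median 11.88) after weaning and 11.62 to 11.85 (median 11.74) before. The ranges overlapped slightly, and the difference was 0.17 ± 0.06 (limma adjusted p = 0.0121). Slc25a1, the citrate carrier that exports citrate for lipid synthesis, had 8.57 to 9.03 (median 8.71) after weaning and 8.48 to 9.03 (median 8.78) before. Its estimate was -0.00 ± 0.09 (limma adjusted p = 0.994). Slc25a11 had 7.51 to 8.16 (median 7.86) after weaning and 7.28 to 7.94 (median 7.76) before, and was not called (0.12, limma adjusted p = 0.278).

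Amino acid carriers also moved in both directions. Of 9 genes with a probe set, 6 were tested, 2 were higher, 2 were lower and 2 were not called, with a median difference of 0.02. Slc25a44, a carrier of branched-chain amino acids, had 6.42 to 6.93 (median 6.77) after weaning, against 7.38 to 8.25 (median 7.83) before. It was 2.16-fold lower without overlap (-1.11 ± 0.09, limma adjusted p = 5.43e-09), and a second probe set differed by -0.91, also without overlap. Slc25a15, which exchanges ornithine and citrulline across the inner membrane, had 9.57 to 9.92 (median 9.66) after weaning, against 10.23 to 10.51 (median 10.39) before. Again the stages were apart, and it was 1.62-fold lower (-0.70 ± 0.06, limma adjusted p = 7.68e-09). Its second probe set, above log2 6 on all 18 arrays, differed by -0.55 with overlapping arrays, at 6.08 to 8.03 after weaning and 6.89 to 8.55 before, and was higher on day 32 than on day 24 by 1.02 where the brightest differed by -0.12.

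Higher levels were measured for Slc25a12, the aspartate/glutamate carrier also called Aralar, and for the glutamate carrier Slc25a22. Slc25a12 had 6.52 to 6.87 (median 6.77) after weaning and 5.82 to 6.45 (median 6.17) before, a 1.48-fold difference (0.57 ± 0.08, limma adjusted p = 2.31e-06). Its other probe sets, under log2 6 on every array, differed by 0.18 and -0.05. Slc25a22 had 7.79 to 8.18 (median 7.92) after weaning and 7.1 to 7.68 (median 7.5) before, a 1.42-fold difference (0.51 ± 0.08, limma adjusted p = 2.79e-05). Neither gene had overlapping stages on its brightest probe set. Slc25a13, the second aspartate/glutamate carrier, also called citrin, had 6.45 to 7.09 after weaning and 6.09 to 7.41 before, and was not called (-0.12, limma adjusted p = 0.413). The glycine carrier Slc25a38, which supplies heme synthesis, was not called either (0.16, limma adjusted p = 0.0754).

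Slc25a20, the carnitine/acylcarnitine translocase, is the carrier best known for acylcarnitines. On the arrays after weaning it had 8.92, 9.47 and 9.37 on day 24 and 8.95, 9.08 and 9.16 on day 32, against 9.75 to 10.06 (median 9.99) on the 12 arrays before. Every array after weaning lay below every array before, and the gene was 1.76-fold lower (-0.81 ± 0.08, limma adjusted p = 2.45e-08). Its second probe set differed by -0.67, without overlap. Before weaning its age means stayed between 9.92 ± 0.16 on day 4 and 10.0 ± 0.04 on day 11 (SD, n = 3 mice each).

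Among the iron and glutathione carriers, 4 genes had a probe set and 3 were tested. Slc25a37, mitoferrin-1, which brings iron to heme and iron-sulfur cluster synthesis, had 7.23 to 7.65 (median 7.43) after weaning and 6.41 to 6.94 (median 6.7) before. It was 1.61-fold higher without overlap (0.69 ± 0.07, limma adjusted p = 1.43e-07). Its paralog Slc25a28, mitoferrin-2, had 7.11 to 8.1 (median 7.34) after weaning and 7.36 to 7.98 (median 7.73) before. These arrays overlapped, with a difference of -0.22 ± 0.09 (limma adjusted p = 0.0334) that was not called when any of 6 single arrays was left out (of day 4 replicate 2, day 9 replicate 1, day 11 replicate 1, day 24 replicate 1 and day 32 replicates 1 and 2). Slc25a39, which imports glutathione, was not called (-0.16, limma adjusted p = 0.102), and its other 3 probe sets above log2 6 on every array differed by -0.03 to 0.18.

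Members without a long-settled substrate held the largest difference in each direction among the 26 genes tested. Slc25a48, which recent work links to choline import, had 6.03, 6.49 and 6.62 on day 24 and 8.38, 8.18 and 7.79 on day 32. Before weaning it had 3.58 to 3.99 (median 3.83), about the median of all probe sets on an array, which was 3.88 to 3.97. The difference was 3.45 ± 0.10 (limma adjusted p = 7.79e-16), and since the level before weaning was that of an average dim probe set, its 10.9-fold size depends on the array's floor. Slc25a48 passed the filter only through the arrays after weaning. Its other probe sets, under log2 6 on every array, differed by 0.7 and 0.22.

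Slc25a34, which resembles a yeast oxaloacetate carrier, had 6.78, 6.33 and 6.64 on day 24 and 5.49, 5.93 and 5.76 on day 32, against 7.93 to 8.4 (median 8.22) before weaning. All arrays after weaning lay below those before, and it was 4.09-fold lower (-2.03 ± 0.08, limma adjusted p = 1.28e-13). Slc25a46, an outer-membrane member that takes part in mitochondrial shape and lipid transfer, had 8.5 to 8.82 after weaning and 8.71 to 9.03 before. It was 1.15-fold lower with overlapping arrays (-0.20 ± 0.06, limma adjusted p = 0.00584), and a second probe set differed by -0.24, also with overlap.

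**Figure D3:**
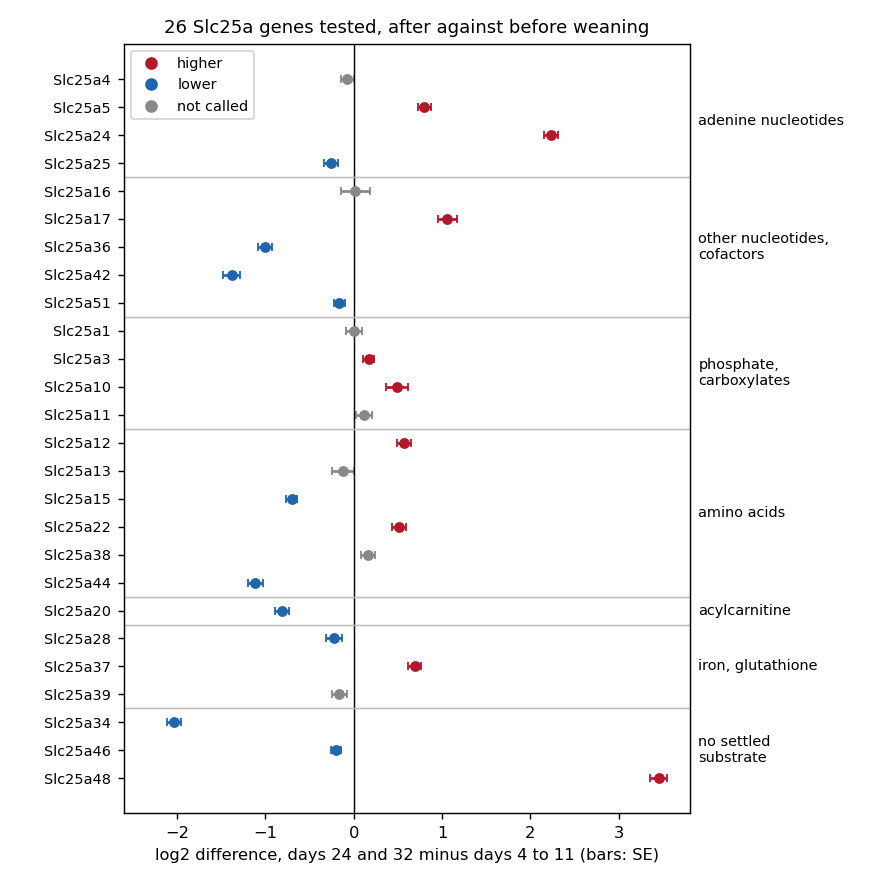
Difference in log2 level between days 24 and 32 and days 4 to 11 (horizontal axis, limma estimate with its SE) for the 26 Slc25a genes tested, grouped by substrate. Slc25a48 lies farthest right at 3.45, Slc25a34 farthest left at -2.03, and the 4 phosphate and carboxylate carriers lie between -0.00 and 0.49.

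The timing of these differences was read from neighbouring ages. Across all 6 ages, 17 of the 26 members varied (limma F test), against 68.3% of all genes. Within suckling, no member differed between day 11 and day 4 in limma, where 2.89% of all genes did. At an unadjusted p under 0.05 there were 2 such members, and limma with array weights called 2, Slc25a24 as higher (0.47) and Slc25a28 as lower (-0.39), where 10.8% of all genes were called. No member was called between day 7 and day 4, day 9 and day 7 or day 11 and day 9, where 0.0812%, 0.0464% and 0.0464% of all genes were called. At an unadjusted p under 0.05 these steps had 3, 0 and 2 of the 26 members. The share of all genes at that unadjusted threshold was not counted for any of these comparisons. No excess of members is therefore read from the unadjusted counts.

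Between day 24 and day 11, 16 members were called, 8 higher and 8 lower, against 26.8% and 32.3% of all genes. The largest were Slc25a48 (2.50), Slc25a24 (1.90), Slc25a34 (-1.44), Slc25a42 (-1.36) and Slc25a44 (-1.19). Slc25a20 (-0.75, limma adjusted p = 6.19e-05) and Slc25a15 (-0.60, limma adjusted p = 4.9e-05) were lower as well. Slc25a10 was higher by 0.59 (limma adjusted p = 0.0168), but by 0.38 without replicate 1 of day 11, its lowest array at 7.93, and its call was lost there and without replicate 3 of day 24. Slc25a22 (0.44) lost its call without replicate 1 of day 24, and Slc25a25 (-0.45) without replicate 2 of day 11.

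Between day 32 and day 24, 5 members were called, 3 higher and 2 lower, where 6.09% of all genes were higher and 6.23% lower. Slc25a48 was 3.34-fold higher on day 32 than on day 24 (1.74 ± 0.16, limma adjusted p = 1.35e-06). Slc25a34 was 1.81-fold lower (-0.86 ± 0.13, limma adjusted p = 0.000468), and neither gene's arrays overlapped between these ages. Slc25a24 was higher by 0.46 (limma adjusted p = 0.0344) and Slc25a51 by 0.43 (limma adjusted p = 0.0102), or by 0.15 and not called with the mean of its probe sets. Slc25a28 had 7.41, 7.8 and 8.1 on day 24 and a mean of 7.18 ± 0.08 (SD, n = 3 mice) on day 32. It was lower on day 32 (-0.59, limma adjusted p = 0.013). The calls of Slc25a24, Slc25a28 and Slc25a51 were lost without replicate 3 of day 24, which left 2 members called at this step. Slc25a24 also lost its call without replicate 1 of day 24 or replicates 2 or 3 of day 32, and Slc25a28 without replicate 2 of day 32.

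Pairs of related carriers were set side by side for 11 pairs, drawn up with earlier results of these data known and therefore described with no test. In 2 pairs both genes were called in the same direction once dim members were fitted without the filter. These were the glutamate carriers Slc25a18 (0.32) and Slc25a22 (0.51), both higher, and the pyrimidine nucleotide carriers Slc25a33 (-0.63) and Slc25a36 (-1.0), both lower. The dim partners had overlapping stages. Slc25a18 had 2.95 to 3.56 after weaning and 2.53 to 3.08 before, under the lowest array median of 3.88. Slc25a33 had 4.59 to 5.36 after weaning and 5.19 to 6.08 before. In the pairs Slc25a23 with Slc25a24 and Slc25a15 with Slc25a29 the dim partner was not called, and neither Slc25a39 nor Slc25a40 was.

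In the other 6 pairs both genes were tested, and their per-array difference of log2 level is given here only for its shift between the stages, since a difference between probe sets says nothing of which gene has more RNA. Slc25a5 was higher by 0.80 while Slc25a4 differed by -0.07, and Slc25a4 minus Slc25a5 was -3.4 to -2.81 after weaning and -2.5 to -1.87 before, a shift of -0.87. Slc25a25 minus Slc25a24 was -4.97 to -4.24 after weaning and -2.56 to -1.64 before, a shift of -2.50 in which both genes were called, in opposite directions. For the coenzyme A pair, Slc25a16 minus Slc25a42 was 0.76 to 1.57 after weaning and -1.13 to 0.33 before, a shift of 1.40. The ranges of these 3 pairs lay apart.

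The other 3 pairs had overlapping ranges. The aspartate/glutamate carriers shifted by 0.69, with Slc25a12 minus Slc25a13 at -0.57 to 0.31 after weaning and -1.04 to -0.27 before. The mitoferrins shifted by -0.91, with Slc25a28 minus Slc25a37 at -0.54 to 0.87 after weaning and 0.53 to 1.33 before. The dicarboxylate and oxoglutarate carriers shifted least, by 0.37, with Slc25a10 minus Slc25a11 at 0.95 to 1.49 after weaning and 0.34 to 1.06 before.

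**Figure D4:**
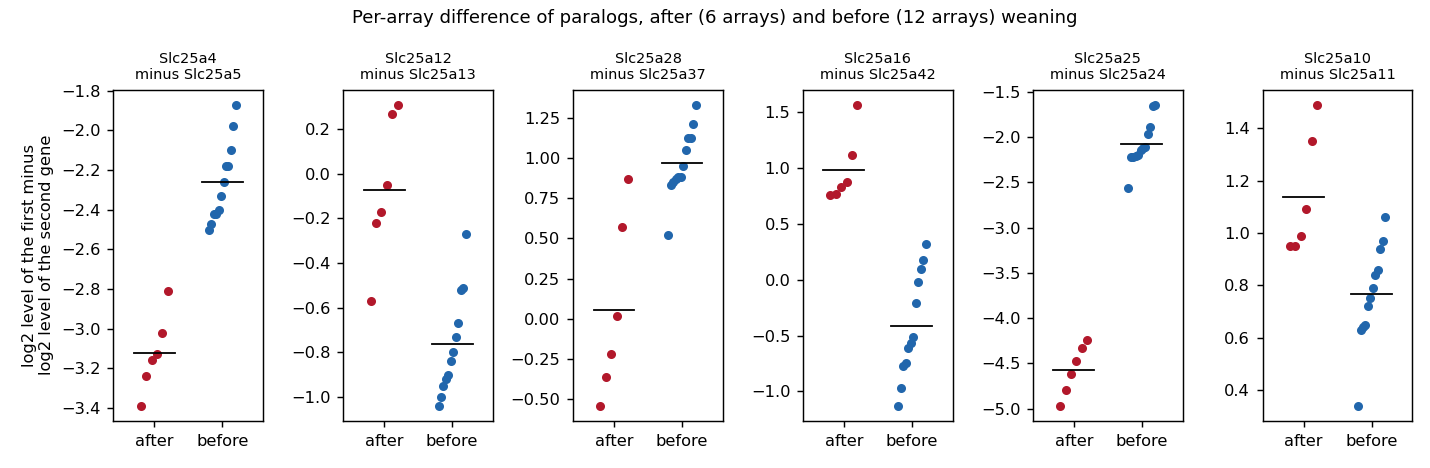
Per-array difference in log2 level between 2 paralogous carriers (vertical axis, scaled per pair) on the 6 arrays after weaning (red, left) and the 12 before (blue, right); points are arrays and lines are means. The stages lie apart for Slc25a4 against Slc25a5, Slc25a16 against Slc25a42 and Slc25a25 against Slc25a24, and overlap in the other 3 panels.

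The enzymes that share a route with each carrier were counted from lists drawn up from general knowledge. Among all genes tested, 31% were higher after weaning and 41.8% were lower, and each count is to be read beside these shares. In the acylcarnitine route, 7 of 12 genes tested were lower after weaning and 2 were higher, with a median difference of -0.38 beside -0.81 for Slc25a20. Acaa2, the mitochondrial thiolase, had 8.22 to 8.99 after weaning, against 10.69 to 11.36 before (-2.35, limma adjusted p = 5.58e-14). Hadha, the trifunctional protein's alpha subunit, had 8.83 to 9.06 after weaning and 9.51 to 10.03 before (-0.80, limma adjusted p = 4.54e-08). Cpt1a, which makes acylcarnitines at the outer membrane, had 8.35 to 9.13 after weaning and 9.37 to 9.91 before (-0.78, limma adjusted p = 9.26e-07). Stages did not overlap for any of these 3 genes. The higher ones were Acadm (0.40), the medium-chain dehydrogenase, and Cpt2 (0.16).

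In the route to citrulline, arginine and proline, 3 of 9 genes tested were higher and 4 were lower, near the shares of all genes, beside Slc25a15 at -0.70. Arg2, the mitochondrial arginase that makes ornithine, had 7.59 to 9.16 after weaning, against 2.29 to 2.66 before (5.59, limma adjusted p = 5.48e-17). Its level before weaning lay near the bottom of the scale, whose lowest value was 1.68, and it passed the filter only through the arrays after weaning. Asl, which releases arginine from argininosuccinate, had 7.04 to 7.48 after weaning and 9.29 to 10.01 before (-2.54, limma adjusted p = 2.1e-14). Aldh18a1, which starts proline and ornithine synthesis from glutamate, had 8.64 to 9.55 after weaning and 11.18 to 11.44 before (-2.21, limma adjusted p = 7.1e-16). The stages of all 3 lay apart.

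The genes of the TCA cycle and malate-aspartate shuttle were mostly higher, 14 of 17 tested, with 1 lower and a median difference of 0.28. Idh3a, a subunit of NAD-dependent isocitrate dehydrogenase, had 9.17 to 9.85 after weaning and 7.83 to 8.88 before (1.13, limma adjusted p = 3.75e-07). Got1, the cytosolic aspartate aminotransferase of the shuttle, differed by 0.80 and the oxoglutarate dehydrogenase gene Ogdh by 0.67. Idh2, the NADP-dependent mitochondrial enzyme, was the lower one (-0.57, limma adjusted p = 1.49e-05). Beside them, Slc25a12 differed by 0.57, Slc25a11 by 0.12 and Slc25a13 by -0.12, and only Slc25a12 of these carriers was called.

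Of the genes that turn exported citrate into fat, 5 of 6 tested were higher and none was lower, with a median difference of 0.87, while the citrate carrier Slc25a1 stood at -0.00. Scd1, stearoyl-CoA desaturase, had 7.74 to 10.66 after weaning and 3.48 to 6.65 before (4.93, limma adjusted p = 1.73e-13). Fasn, fatty acid synthase, differed by 1.32 and Acaca, acetyl-CoA carboxylase, by 0.89. The mean of the adipocyte markers moved with this list (log2 6.45 to 7.61 after weaning, 4.14 to 6.25 before), although 1 of the 4 tested was called lower. The part of these markers in it was not tested.

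Iron-sulfur cluster and heme genes split, with 2 higher and 2 lower of 8 tested, both under the shares of all genes. Beside them, Slc25a37 (0.69) was called higher and Slc25a28 (-0.22) lower, while Slc25a38 (0.16) and Slc25a39 (-0.16) were not called. Alas1, the first enzyme of heme synthesis outside red cells, had 8.71 to 9.22 after weaning and 7.22 to 7.73 before, without overlap (1.39, limma adjusted p = 8.65e-12). Cpox, a later enzyme of that route, was lower (-0.58), and Fech, which inserts the iron, was lower too (-0.39, limma adjusted p = 9.63e-06).

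**Figure D5:**
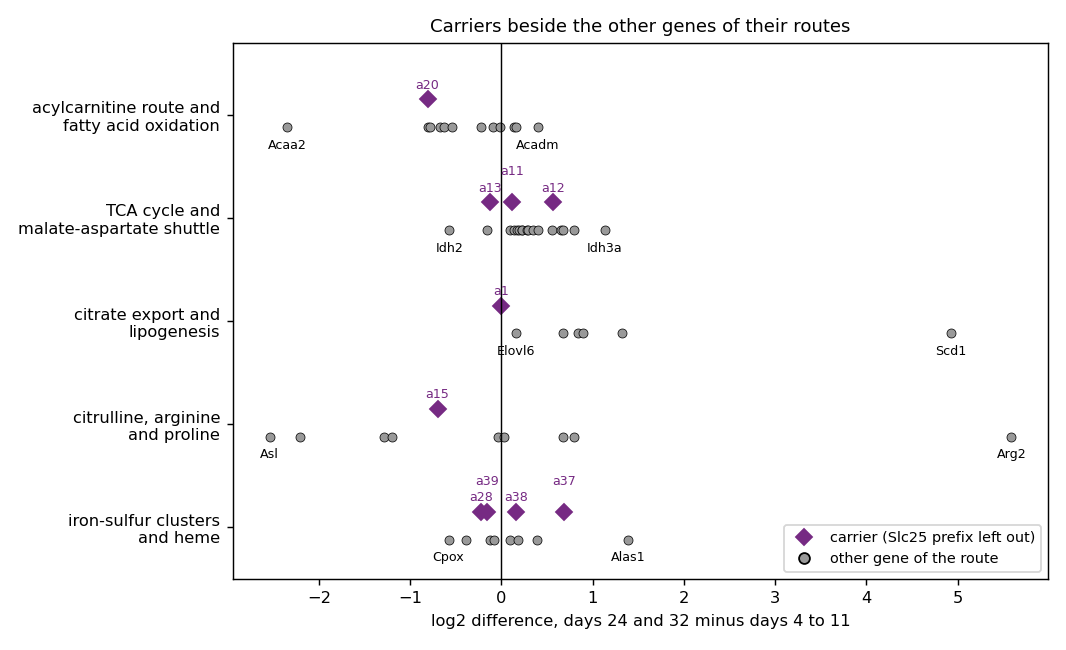
Difference in log2 level between days 24 and 32 and days 4 to 11 (horizontal axis) for the genes tested of 5 metabolic routes (grey circles, lowest and highest named) and for the Slc25 carriers that serve them (purple diamonds). Slc25a20 at -0.81 lies among the lower genes of its route, and Slc25a1 at -0.00 lies left of all 6 lipogenic genes.

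Marker levels of several cell types also differed between the stages. In whole-wall RNA, fewer cells of a type and less RNA per cell cannot be told apart. Mean log2 level over the 6 epithelial markers, all tested, was 11.19 to 11.45 after weaning and 10.27 to 10.45 before, with 4 called higher and 2 lower. The means of smooth muscle markers (6 of 6 tested, 2 called higher and 1 lower) overlapped at 10.39 to 10.88 and 10.38 to 10.76. For adipocytes, 4 of 5 markers with a probe set were tested, with Lep under the filter, and 3 were called higher and 1 lower. Means of lymphocyte markers (3 of 6 tested, with Cd3e, Cd3g and Cd79a under the filter) were 5.40 to 8.29 after weaning and 4.33 to 4.65 before. Of the 3 tested, 2 were called higher and 1 was not called. The list means of hepatocytes, red cells and neurons or glia were lower, at 4.23 to 4.78, 3.03 to 3.48 and 4.76 to 5.19 after weaning, against 5.39 to 5.79, 3.65 to 4.14 and 5.69 to 6.06 before. Few of these markers were tested. Of 5 hepatocyte markers with a probe set, 3 were tested, with 2 called lower and 1 higher (Alb and Apoh under the filter). For red cells 1 of 3 was tested (Hba-a1 and Slc4a1 under the filter), and it was called lower. For neurons or glia 2 of 4 were tested (Elavl4 and Sox10 under the filter), both called lower. Skeletal muscle markers stood at 4.10 to 4.44 after weaning and 3.85 to 4.12 before, with 5 of 6 under the filter. How far these lists account for the carriers' differences was not tested.

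Control signals also moved with the stages. The 18S ribosomal control stood at 10.85, 10.29 and 10.26 on day 24, above every other array, at 7.01, 7.84 and 7.96 on day 32 and at 4.93 to 8.19 before weaning, so day 24 stood apart from both day 11 and day 32. Poly-A control transcripts lay higher on every array after weaning (4.98 to 6.37) than on any before (3.53 to 4.51), and their part in the carriers' differences cannot be told apart from the stage. Levels of the spiked control transcripts formed a higher group of 10 arrays, all 6 after weaning and 4 of the 12 before. Within that group alone, which holds no array of day 9, 16 members were called, 10 higher and 6 lower, against 27.3% and 32% of all genes. The differences of Slc25a48 (3.40), Slc25a24 (2.28), Slc25a34 (-1.95), Slc25a42 (-1.35) and Slc25a20 (-0.77) kept their call. The small differences of Slc25a3, Slc25a25, Slc25a28, Slc25a46 and Slc25a51 were not called there, while Slc25a11 (0.34) and Slc25a38 (0.33) were called higher. Xist, which is expressed in female mice, was low on 5 of 6 arrays after weaning and on 3 of 12 before. With log2 Xist as a covariate, 15 members were called, against 63.4% of all genes, and Slc25a5 on chromosome X differed by 0.78 (limma adjusted p = 1.96e-06).

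The 18 dim members lay under log2 6 on at least 16 of 18 arrays and were fitted only without the filter. Slc25a35, a relative of Slc25a34, stood out with 5.21 to 5.73 after weaning and 2.95 to 3.55 before (2.23, limma adjusted p = 6.54e-14), opposite in sign to Slc25a34. Its arrays before weaning all lay under 3.88, the lowest array median, so the size of its difference depends on the array's floor. Folate carrier Slc25a32 (0.60), glutamate carrier Slc25a18 (0.32), Slc25a41 (0.22) and Slc25a54 (0.39) were higher as well. Of these, Slc25a18, Slc25a41 and Slc25a54 lay under 3.88, the lowest array median, on every array. The pyrimidine nucleotide carrier Slc25a33 (-0.63), uncoupling-protein-like Slc25a30 (-0.60) and Slc25a27 (-0.53), and the S-adenosylmethionine carrier Slc25a26 (-0.32) were lower on their brightest probe sets. Slc25a26 differed by 0.35, in the opposite direction, on its second probe set. The other probe sets of Slc25a27 differed by -0.0 to 0.11 and those of Slc25a30 by -0.41 to 0.16, so these calls depend on the probe set. Slc25a45 had 7.9, 5.83 and 5.85 on day 24, 5.67, 4.92 and 5.31 on day 32, and 4.94 to 5.4 before weaning. It was called higher (0.68, limma adjusted p = 0.0132), with 1 array far above the others and overlapping stages. How far the call rests on that array was not tested. Slc25a2, Slc25a14, Slc25a23, Slc25a29, Slc25a31, Slc25a40, Slc25a47 and Slc25a53 were not called. At this brightness a difference that was not called was not detectable on these arrays, which does not show an equal level.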

How the data were processed

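Total RNA of ileum from 18 mice was hybridised to 1-colour Affymetrix arrays with 45101 probe sets. The authors deposited log2 values, and RMA is the tool that the submitters' processing notes name, with no version. RMA makes the arrays' distributions alike, so differences are relative to the other genes of an array. Values spanned 1.68 to 13.71, arrays of the same age correlated at 0.983 or more, and the number of arrays limits the precision.

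Probe sets were named from the platform annotation, updated through Entrez identifiers to RefSeq (no symbol changed). Of all probe sets, 34958 had 1 symbol, 932 had several and 9211 were not listed. A probe set with 2 symbols, 1 of them Slc25a37, was left out. Some further members of the family were not analysed here. No sample column was left unused.

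For every gene the brightest probe set by mean level was kept if it reached log2 6 on at least 3 arrays, leaving 8622 genes. limma 3.58.1 (R 4.3.3) fitted the 6 ages to all 18 arrays, with 12 residual degrees of freedom and a median residual SD of 0.176. Contrasts were moderated with eBayes, adjusted over all genes tested by Benjamini-Hochberg, and called at an adjusted p under 0.05. Paralog differences were computed with Python 3.11.15 and numpy 2.4.6 and are given with no test. The code was tested on simulated data. Ages are those in the labels. Mice of an age were numbered in accession order, which pairs nothing.

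Single-array values are given for up to 4 called members per substrate group with the largest stage differences. They are also given for other members a sentence turns on. Of other lists, up to 3 called genes with the largest differences are named. Acadm, Cpt2, Idh2 and Vdac1 are named outside that rule and were chosen after their values were seen. The members, lists, pairs and motifs were chosen with earlier results of these data known. Alternatives covered the filter, the probe set per gene, normalization, array weights, the eBayes settings, single arrays, the ages fitted, control levels and Xist. Promoter windows are RefSeq GRCm38.p6.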

Additional observations from a re-analysis of the deposited data

How the results depend on the processing

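Of 40 member differences called, 27 kept direction and call under every alternative run, up to 31 each, and 13 were lost in at least 1. Slc25a51 alone turned sign, to 0.07 between the stages and 0.04 between day 24 and day 11 with the mean of its probe sets. Of 7 stage differences of members not called, 3 were called in some alternative: Slc25a11 within the spike groups, Slc25a38 in 6 alternatives, among them without day 4 replicate 3 or day 32 replicate 1, and Slc25a39 with array weights and without day 4 replicate 1. With no filter on dim probe sets, 29 of 44 members were called between the stages (56.3% of all genes) and 25 between day 24 and day 11 (39.4%). With the filter at log2 8, which 14 members passed, 11 were called between the stages (76.4% of all genes), 10 across the 6 ages (72.8%) and 3 between day 32 and day 24 (15.4%). At this last step, of 26 members, there were 3 with averaged probe sets (12.6%), 2 with only the 6 arrays of both ages (5.15%) and 2 with only the higher spike group (3.99%). Between day 11 and day 4, array weights gave 2 (10.8%). The stricter filter tests fewer genes, and the other causes were not tested. Leaving out single arrays gave 14 to 18 members across the ages, 18 to 20 between the stages, 0 to 0 between day 11 and day 4, 15 to 17 between day 24 and day 11 and 2 to 6 between day 32 and day 24. The lowest of the last came without day 24 replicate 3, and 3 remained called without day 32 replicate 2. Of 20 named genes of other lists, 18 kept their call. Scaling moved the split of all genes called between day 32 and day 24, with 525 higher and 537 lower as deposited against 452 and 758 after quantile normalization. Cyclic loess moved that between day 11 and day 4, with 171 higher and 120 lower against 116 and 133 as deposited. No paired analysis was possible because the labels number mice and not replicates, and the 1 number that recurs, on days 7 and 9, is not explained. Having 3 mice an age limits what can be called, and signals near the array medians limit the dim members.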

Other observations

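RNA levels were also read for genes that are related to the family or act beside the carriers but bear other names. Mtch2, an outer-membrane relative of the family that inserts proteins into that membrane, had 10.02 to 10.39 (median 10.33) after weaning, against 8.80 to 9.49 (median 9.25) before. It was 2.08-fold higher without overlap (1.06 ± 0.08, limma adjusted p = 2.14e-09). Its relative Mtch1 had 8.12 to 8.41 (median 8.37) after weaning and 8.39 to 9.19 (median 9.07) before, and was 1.54-fold lower (-0.62 ± 0.12, limma adjusted p = 0.000101), a call lost when only the arrays of the higher spike group were used (-0.31).

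Of 4 genes tested for pyruvate entry and outer-membrane channels, 3 were higher after weaning and none was lower, against 31% and 41.8% of all genes. The voltage-dependent channels Vdac2 (0.41, limma adjusted p = 7.29e-05) and Vdac3 (0.40, limma adjusted p = 3.32e-05) were higher with stages apart. Vdac1 had 10.58 to 10.69 after weaning and 10.62 to 10.9 before, and was not called (-0.09, limma adjusted p = 0.154). Mpc1, a subunit of the mitochondrial pyruvate carrier, had 8.72 to 9.45 after weaning and 7.67 to 8.84 before (0.47, limma adjusted p = 0.00324), and was not called with Xist as a covariate (0.34).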
